A study of Mus musculus with 39 samples.

Results

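Trp53, the mouse gene of the transcription factor p53, and 9 of its textbook target genes (Cdkn1a, Mdm2, Ccng1, Pmaip1, Bax, Bbc3, Trp53inp1, Sesn2 and Perp) were followed through the making of pluripotent lines from mouse granulosa cells and of germ cells from such a line. The 10 genes were chosen by symbol, with earlier results of these data known, a fall of Pmaip1 among them. All 10 were listed in each of 5 tables of FPKM values (fragments per kilobase of transcript, scaled to library size), among 20981 genes of the reprogramming table, 20875 of the line table, 20354 of the germ cell induction table, 17993 of the table of starting cells and 30849 identifiers of a fibroblast table. All 10 passed the filter on low values in the 3 tables that were tested.

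RNA was sequenced from 39 libraries of 14 groups, all of strain C57BL6/CBA. Reprogramming cells made from granulosa cells (GC, the somatic cells around the oocyte) gave 2 libraries each at day 28 with crotonic acid (CA), at day 28 without it and at day 16, a stage also called XEN-like. The acid was present at 7 mM between day 16 and day 28. The lines obtained from granulosa cells, called gPSC, gave 1 library each for lines 2, 4, 10, 11, 15 and 16, and stood in 1 table with 1 GC library. In the induction table, gPSC4 and a female embryonic stem cell line (ESC) were each sequenced as stem cells, as epiblast-like cells (EpiLC, 2 days in bFGF and activin A with knockout serum replacement) and as germ cells made in culture (PGCLC, primordial germ cell-like cells, 4 further days in BMP4, SCF, EGF and LIF), beside E12.5 primordial germ cells (PGC), with 3 libraries in each of 7 groups. A table of starting cells held 2 libraries of a female ES line of the same strain, 1 of GC and 1 of embryonic fibroblasts (MEF), and another table held a second MEF library. gPSC4 is 1 line and the ESC are 1 line. No label ties replicates to separate cultures or animals, so p-values measure only the spread between these libraries, which may be technical.

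p53 is held at a low protein level in unstressed cells by MDM2, which marks it for degradation. After DNA damage or other stress it accumulates, binds DNA as a tetramer and raises genes that halt the cell cycle, repair damage, limit oxidative stress or start mitochondrial apoptosis. It is known as a barrier to reprogramming of somatic cells, and mouse pluripotent cells are known to carry abundant p53 protein. Transcript levels of Trp53 do not report the amount or activity of the protein, and none of these was measured.

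The response element consists of pairs of a 10-base half-site, and DNA just before 3 annotated start sites is shown for 2 members with called changes, since the upstream Cdkn1a window was the one with a paired core, the downstream one had no match and Ccng1 had a single half-site. Capitals mark matches to the p53 half-site consensus and, in Cdkn1a, also the paired core CATGNNNNNNCATG, which overlaps a half-site. Each is the 250 bases before a RefSeq start on GRCm38.p6. The upstream Cdkn1a start is on the plus strand (chr17:29090729-29090978), the downstream Cdkn1a start on the same strand (chr17:29093519-29093768) and Ccng1 on the minus strand (chr11:40755287-40755536).
Cdkn1a, upstream start: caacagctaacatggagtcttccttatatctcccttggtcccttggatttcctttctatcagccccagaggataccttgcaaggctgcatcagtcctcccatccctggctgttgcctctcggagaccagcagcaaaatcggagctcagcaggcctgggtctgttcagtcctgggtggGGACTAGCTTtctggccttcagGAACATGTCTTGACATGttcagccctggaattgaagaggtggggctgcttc
Cdkn1a, downstream start: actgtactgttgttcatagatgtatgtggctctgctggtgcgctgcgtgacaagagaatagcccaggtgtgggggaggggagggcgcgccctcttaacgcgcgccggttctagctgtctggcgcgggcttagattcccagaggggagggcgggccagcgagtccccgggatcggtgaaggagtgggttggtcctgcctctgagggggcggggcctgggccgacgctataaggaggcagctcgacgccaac
Ccng1: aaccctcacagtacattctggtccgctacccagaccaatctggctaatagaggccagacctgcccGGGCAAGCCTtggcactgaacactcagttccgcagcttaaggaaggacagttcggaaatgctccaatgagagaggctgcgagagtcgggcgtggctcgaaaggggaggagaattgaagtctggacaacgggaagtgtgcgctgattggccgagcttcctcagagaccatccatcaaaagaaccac
The upstream Cdkn1a window held half-sites that begin 73 and 51 bases before the start and a paired core that begins 48 bases before it, and Ccng1 held 1 half-site that begins 185 bases before the start. Counted in windows that run 250 bases before to 50 after a start, 5 of 10 windows of 7 members held a half-site, against 8.36% of all 32851 RefSeq windows, and 1 held the paired core, against 0.712%. The windows of Sesn2 and Bbc3, members that also had called changes, held neither motif. Both motifs read the same on either strand. A match of letters is a description of the window. No window was available for Pmaip1, Trp53inp1 or Perp, so these were not searched, and binding of p53 was not measured. The levels below are per gene and do not separate the Cdkn1a starts.

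The gPSC lines, the EpiLC and the germ cell groups carried the marker transcripts of their labels. The summed level of 6 pluripotency genes was 1700 to 2010 FPKM in the gPSC lines and 10.3 FPKM in the GC library of the same table. The 5 EpiLC genes summed to 672 to 839 FPKM in EpiLC and to 58.0 FPKM or less in the stem cells, and the 6 germ cell genes to 2971 to 3358 FPKM in PGCLC and PGC and to 84.9 FPKM or less before. Libraries of the induction table held 6107304 to 25223994 assigned reads, recovered from the FPKM values, and members were covered by 31 (Pmaip1 in a germ cell library) to 22431 reads (Trp53). The depth of the other tables is unknown. Of the members, Cdkn1a shares 7.68% of its exon bases with a gene on the opposite strand and Bax 12.2% with an overlapping coding gene, and Trp53 has an annotated pseudogene (Trp53-ps), so a small part of their reads could belong elsewhere.

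The study asked how crotonic acid helps gPSC to form, and the acid was compared with its absence at day 28. None of the 10 genes passed the test, a limma comparison of log2(FPKM + 1) that needs a Benjamini-Hochberg adjusted p under 0.05 and a difference of at least 1 log2. At an unadjusted p under 0.05 there were 2 higher and 1 lower, where 8.37% of all genes were higher and 13.3% lower. Across all genes 2.05% passed (272 genes, and 7 to 25 when 1 of the 4 libraries was left out), and 7.21% had an adjusted p under 0.05 of any size. The largest differences were in Perp, Cdkn1a and Bbc3, each under 0.5 log2.

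Cdkn1a, which encodes the cyclin-dependent kinase inhibitor p21, stood at 353 and 331 FPKM with crotonic acid, against 256 and 254 FPKM without it. The 2 treated libraries were above both untreated ones, and the difference was 0.42 ± 0.10 log2 (SE, n = 2 each, limma adjusted p 0.059). Perp, a p53-induced membrane protein linked to apoptosis and to cell adhesion, had 11.8 and 12.7 FPKM in treated cells and 8.86 and 8.39 FPKM in untreated cells (0.46 ± 0.11 log2, limma adjusted p 0.072). Bbc3, the gene of the pro-apoptotic BH3 protein PUMA, lay the other way, at 10.3 FPKM in both treated libraries and at 13.9 and 14 FPKM in the untreated ones (−0.40 ± 0.09 log2, limma adjusted p 0.058). Groups did not overlap for any of the 3 genes. Nor did they overlap for Mdm2, Pmaip1, Bax and Sesn2, whose limma adjusted p was 0.32 or more. The share of all genes without overlap was not counted. Trp53 itself was at 47.6 and 45.2 FPKM in treated cells and at 50.5 and 47.4 FPKM in untreated cells, and these ranges overlapped. The remaining 6 members differed by −0.32 (Pmaip1) to 0.20 log2 (Mdm2), with limma adjusted p of 0.32 or more.

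The lists gave the same count of calls. None of 30 other p53 targets, of 18 tested regulators of p53 or of 10 tested BCL2 family genes passed the test (limma), with 5 higher and 2 lower, 0 higher and 1 lower, and 0 higher and 1 lower at an unadjusted p under 0.05. Among the other targets, 4 had an adjusted p under 0.05 short of 1 log2, and they are named here after their values were seen. Gdf15, a secreted stress factor, averaged 201 FPKM with the acid and 108 FPKM without it (0.89 log2). Tigar, a regulator of sugar metabolism, and the kinase gene Plk3 were also higher (0.60 and 0.55 log2), and Sesn1, a relative of Sesn2, was lower (−0.50 log2). The median was 0.12 log2 over the 10 members and 0.03 over the 30 other targets, beside −0.05 over all 13266 genes. The 6 pluripotency markers summed to 38.6 and 41.5 FPKM with the acid and to 8.71 and 9.18 FPKM without it, and the 6 fibroblast markers to 340 and 344 FPKM against 613 and 643 FPKM. The 6 endoderm markers summed to 189 to 203 FPKM with the acid and 262 to 267 FPKM without it, and of these Sox17 and Sox7 were called lower. Foxa2 alone among the 6 was higher with the acid (0.64 log2, limma adjusted p 0.012), short of a call. The 6 proliferation genes, none of them called, summed to 110 to 116 FPKM with the acid and 134 to 147 FPKM without it. The part of these markers in the differences was not tested. In bulk RNA, fewer cells of a type and less RNA per cell cannot be told apart.

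The untreated course between day 16 and day 28 had 1 call. Pmaip1, which encodes NOXA, a BH3 protein that opposes the survival factor MCL1, stood at 21.2 and 22.1 FPKM at day 28, against 8.46 and 12.1 FPKM at day 16, and rose by 1.02 ± 0.16 log2 (limma adjusted p 0.0088). Bbc3 averaged 13.9 ± 0.0849 FPKM at day 28 and 8.85 ± 0.516 FPKM at day 16 (SD, n = 2 each), a difference of 0.60 log2 with a limma adjusted p of 0.0084 that is short of 1 log2. Sesn2, a stress-induced brake on mTORC1 signalling, had 30.6 and 30.2 FPKM at day 28 and 15.4 and 22.9 FPKM at day 16 (0.66 log2, limma adjusted p 0.044). Trp53, Cdkn1a, Mdm2, Ccng1 and Perp differed by 0.10 log2 or less in size. Of all genes 5.34% were called and 22.5% had an adjusted p under 0.05, so 1 and 3 of 10 members lie near the background. The day 28 libraries without acid serve in both comparisons, for instance for Bbc3 in opposite directions. Cell type markers moved over the same interval. The 6 granulosa markers summed to 508 to 536 FPKM at day 28 and 1176 to 1270 FPKM at day 16, with Cyp11a1 called lower, and the 6 fibroblast markers to 613 to 643 FPKM at day 28 and 382 to 509 FPKM at day 16. The 6 endoderm markers summed to 262 to 267 FPKM at day 28 and 228 to 243 FPKM at day 16. Of these Sox17 and Sox7 were called higher (1.98 and 2.33 log2), while Foxa2 was lower (−0.33 log2), short of a call. The 6 pluripotency markers summed to 8.71 to 9.18 FPKM at day 28 and 7.36 to 10.6 FPKM at day 16, which overlapped. Among them Esrrb was called higher (1.85 log2), while Tfcp2l1 was lower (−0.86 log2), short of a call. The part of these markers in the members' differences was not tested.

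The call of Pmaip1 was near the limit of 1 log2, and the median of all genes lay at 0.15 log2 in this comparison. With scaling to median ratios the difference was 0.89, with quantile normalization 0.85 and with a trend on transcript length removed 0.87 log2, each short of a call, and it was also lost without day 16 replicate 1 (0.78 log2), without day 28 replicate 1 (limma adjusted p 0.075) and without day 28 replicate 2 (limma adjusted p 0.081). Across 12781 genes the tested difference itself went with transcript length (Spearman's rho 0.35), as did the difference between replicates 1 and 2 at day 28 with the acid (−0.48), at day 28 without it (−0.39) and at day 16 (−0.68). Of 30 other targets, 18 regulators and 10 BCL2 family genes, 0 were called (limma), while 13 higher and 6 lower, 10 higher and 1 lower, and 1 higher and 2 lower had an unadjusted p under 0.05. Of all genes 29.4% were higher and 11.1% lower at that threshold.

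**Figure D1:**
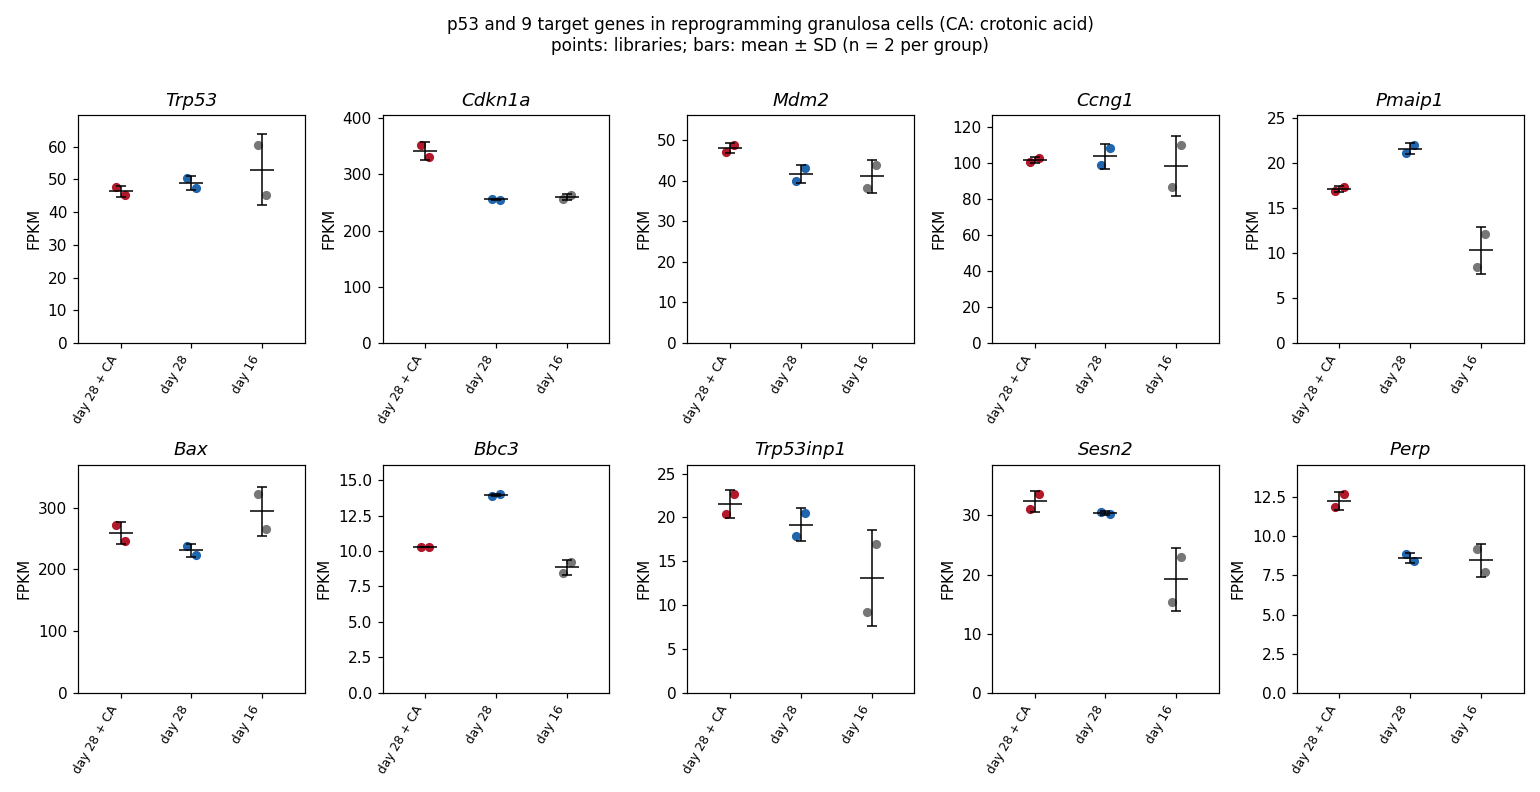
Levels of the 10 genes in FPKM (linear axes from 0) in reprogramming cells at day 28 with crotonic acid (CA), at day 28 and at day 16, with points for the 2 libraries of a group and bars for mean ± SD. Cdkn1a and Perp lie above the untreated day 28 libraries with the acid and Bbc3 below, without passing the test, and Pmaip1 lies at 21.2 and 22.1 FPKM at day 28 and at 8.46 and 12.1 FPKM at day 16.

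The gPSC lines differed from granulosa cells in most of these genes. Of 10 members, 7 passed the test and all of these were higher in the lines, where 39.5% of all genes passed, 21.8% as higher. The GC group has 1 library, so its spread is taken from the lines, and the p-values rest on that assumption. The median over the members was 1.62 log2, beside 0.09 over all 13797 genes.

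Trp53 had a lowest, median and highest level of 226, 263 and 335 FPKM over the 6 lines, against 69.4 FPKM in GC, and was higher by 1.93 ± 0.20 log2 (SE, limma adjusted p 7.6e-05). Mdm2, the ubiquitin ligase that p53 induces and that degrades it, had 90.8, 103 and 135 FPKM as lowest, median and highest line and 38.0 FPKM in GC (1.45 ± 0.20 log2, limma adjusted p 0.00033). Ccng1, the p53-induced cyclin G1, had 113, 125 and 151 FPKM and 95.5 FPKM in GC, a difference of 0.41 log2 (limma adjusted p 0.038) that is short of a call. Every line lay above the GC library for these 3 genes.

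Pmaip1, Bax, Bbc3 and Perp were called higher. Pmaip1 had 26.8, 29.5 and 37.0 FPKM as lowest, median and highest line, against 0.4 FPKM in GC (4.50 ± 0.18 log2, limma adjusted p 7.3e-07). Bax, the effector that opens the outer mitochondrial membrane, had 277, 295 and 320 FPKM in the lines and 79.2 FPKM in GC (1.88 ± 0.10 log2, limma adjusted p 3.0e-06). Bbc3 was at 22.3 to 37.0 FPKM and 7.47 FPKM (1.79 log2), and Perp at 12.9 to 22.6 FPKM and 5.59 FPKM (1.42 log2). Of the stress genes, Sesn2 was higher by 2.49 ± 0.13 log2, with 54.3 to 69.3 FPKM in the lines and 10.3 FPKM in GC. Trp53inp1, a p53-induced gene of stress-linked apoptosis and autophagy, lay the other way with 33.7 to 42.5 FPKM in the lines and 53.6 FPKM in GC (−0.53 log2, limma adjusted p 0.0052, short of a call).

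Cdkn1a did not pass. It ranged between 145 and 285 FPKM over the lines, with the highest line 1.97 times the lowest, the widest ratio of the 10 members, against 117 FPKM in GC (0.69 ± 0.35 log2, limma adjusted p 0.11). All 6 lines were above the GC library. Its value was 285 FPKM in line 2 and 244 FPKM in line 10, and 145 to 179 FPKM in lines 4, 11, 15 and 16.

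Lines 2 and 10 were looked at as a pair after their values were seen. Both lay above the other 4 lines in 5 of 10 members (Cdkn1a, Mdm2, Ccng1, Pmaip1 and Perp) and below them in Trp53, at 226 and 236 FPKM against 245 to 335 FPKM. Among 30 other p53 targets both were above in 14 and below in 1, among 19 regulators above in 1 and below in 4, among 11 BCL2 family genes above in 4 and below in 3, and among all 13797 genes both were above in 25.4% and below in 16.9%. No test was made, since the pair was chosen on these values. Summed levels of 6 fibroblast markers, collagen genes among them, were 1814 and 1649 FPKM in lines 2 and 10 and 859 to 1097 FPKM in the others, and those of 6 proliferation genes 687 and 704 FPKM against 794 to 875 FPKM. Their part in the pattern was not tested.

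The other lists were mixed between lines and GC. Of 30 other p53 targets 11 were higher and 3 lower, of 19 tested regulators 5 were higher and 0 lower, and of 11 tested BCL2 family genes 1 was higher and 1 lower, where 21.8% of all genes were higher and 17.7% lower. The regulators' 5 of 19 lie near that share. Fdxr, the mitochondrial ferredoxin reductase that steroid synthesis needs, was lower (−4.51 log2), with a mean of 8.85 FPKM in the lines and 222 FPKM in GC. Plk2, Gtse1 and Psrc1, a Polo-like kinase and mitotic spindle genes, were higher by 3.62, 3.46 and 3.43 log2. Among regulators Cdkn2a, whose ARF product restrains MDM2, averaged 17.1 FPKM in the lines and 0.35 FPKM in GC (3.72 log2), and the checkpoint kinase gene Chek1 averaged 17.6 FPKM in the lines and 2.89 FPKM in GC, and Chek2 was higher by 1.69 log2. Trp73, a p53 relative, averaged 2.89 FPKM in the lines and 0.01 FPKM in GC. Of the survival genes Bcl2l2 was lower (−1.69 log2), and Bid, which links death receptors to mitochondria, was higher by 1.02 log2. The 6 proliferation genes, all called higher, summed to 687 to 875 FPKM in the lines and 130 FPKM in GC. The 6 fibroblast markers were all called higher as well and summed to 859 to 1814 FPKM in the lines and 42.6 FPKM in GC. The part of both lists in these differences was not tested.

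**Figure D2:**
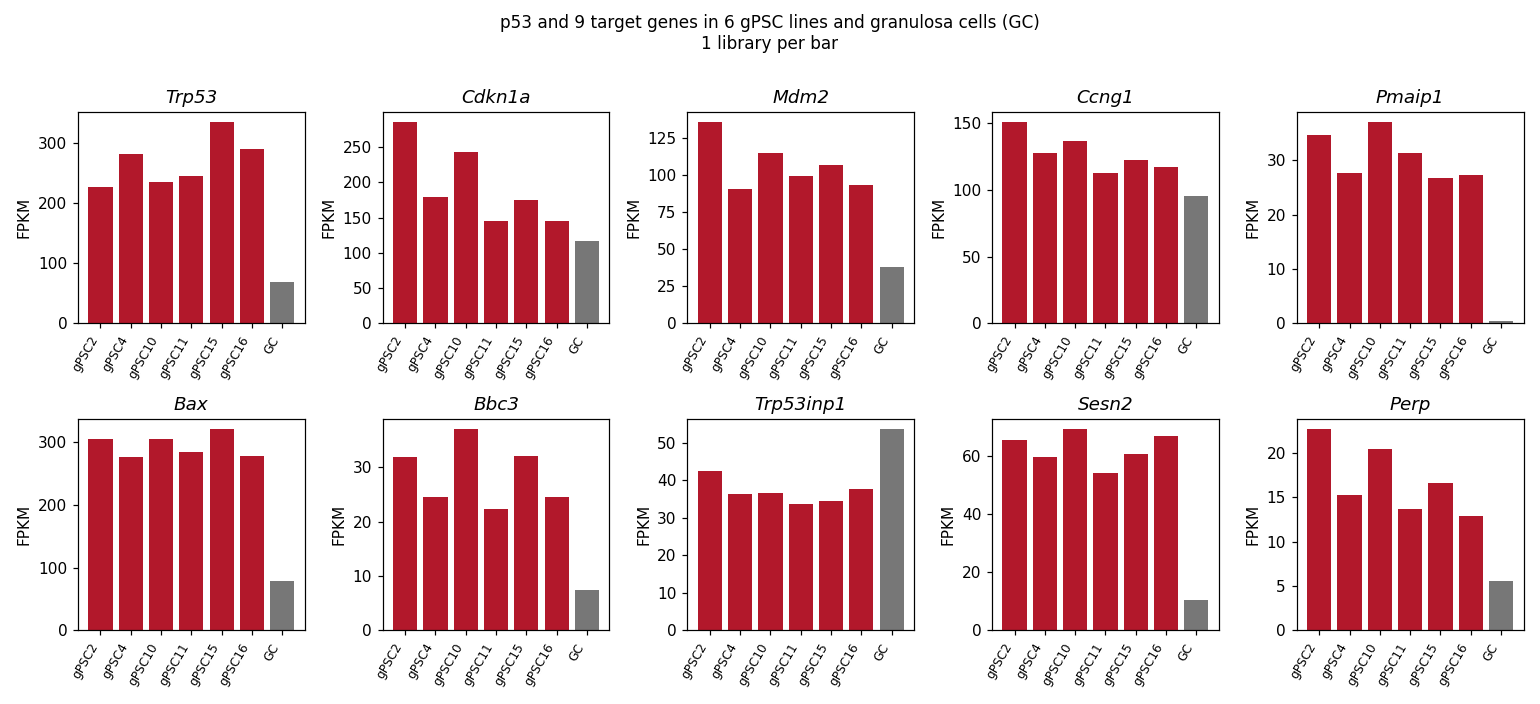
Levels of the 10 genes in FPKM (axes from 0) in the 6 gPSC lines and the GC library, with 1 library per bar. All lines exceed GC in 9 genes and lie below it in Trp53inp1, and Cdkn1a ranges between 145 and 285 FPKM over the lines. The share of all genes with every line on the same side of the GC library was not counted.

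The table of starting cells gives the same genes in ES cells, in another GC library and in fibroblasts, with no test since GC and MEF have 1 library each. Trp53 was at 207 and 218 FPKM in ES cells, 49.4 FPKM in GC and 63.8 FPKM in MEF. Pmaip1 was at 55.8 and 58.2 FPKM in ES cells, 0.31 FPKM in GC and 5.69 FPKM in MEF, so that GC were lowest in both tables that hold them. Cdkn1a was at 181 and 178 FPKM in ES cells, 93.1 FPKM in GC and 87.3 FPKM in MEF. Trp53inp1 was the member in which GC, at 51.7 FPKM, lay closest to ES cells by ratio (60.6 and 61.2 FPKM), with MEF at 5.32 FPKM. In all 10 members both ES libraries were above GC and MEF, and the share of all genes with this order was not counted. The second MEF library, in a table of its own, had 140 FPKM of Cdkn1a, 37.7 FPKM of Trp53 and 11.4 FPKM of Pmaip1.

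Along germ cell induction the members took different courses. Pmaip1 spanned the widest range, with the highest group mean 71.8 times the lowest, followed by Cdkn1a (8.0 times), Bbc3 (6.60), Ccng1 (4.41) and Sesn2 (4.10). Trp53, Mdm2, Bax, Trp53inp1 and Perp spanned 1.64 times or less. Pmaip1 was highest in EpiLC and Cdkn1a in the stem cells, and both were low in germ cells.

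**Figure D3:**
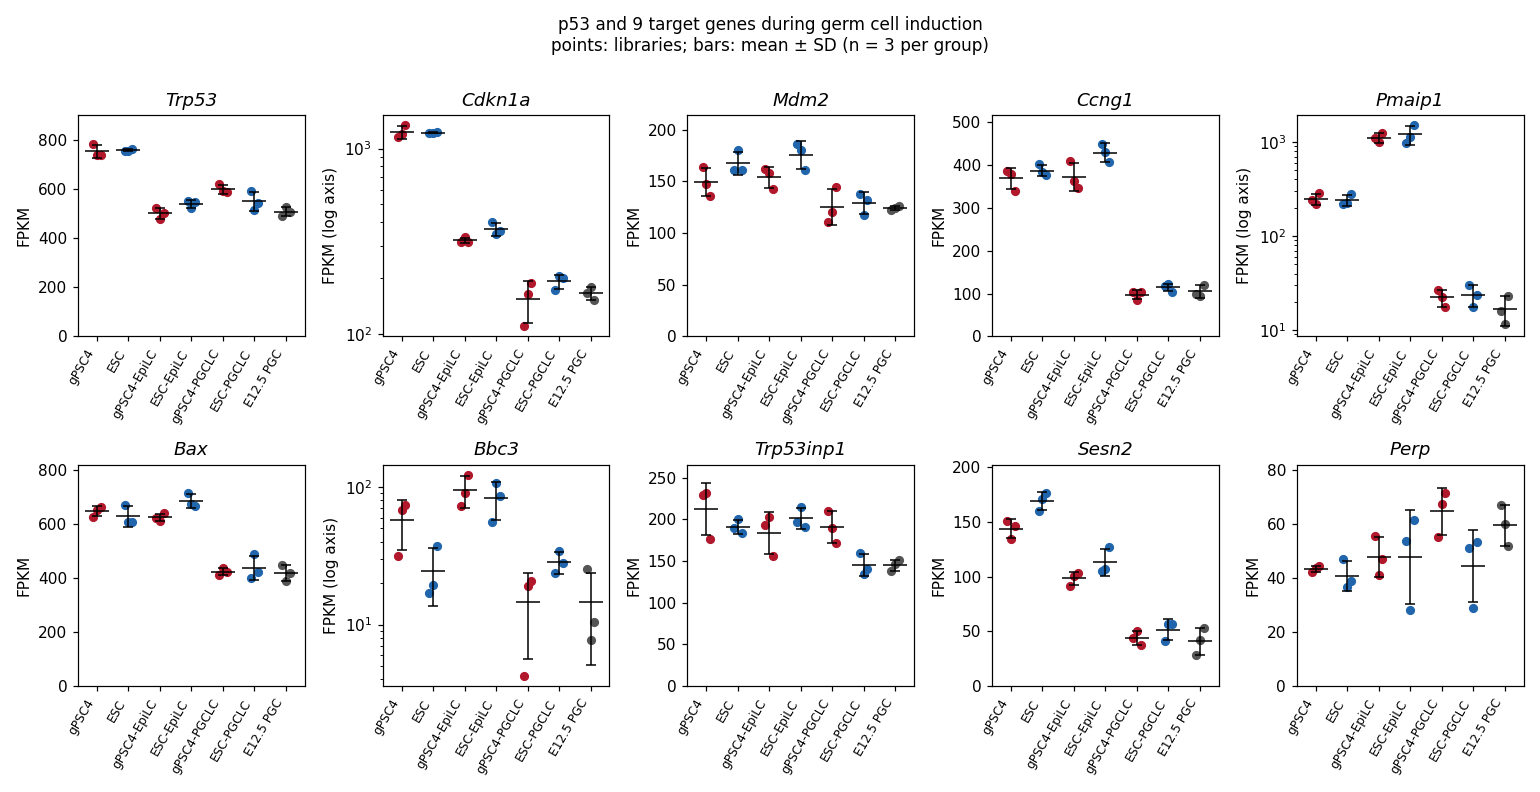
Levels of the 10 genes in FPKM in the 7 groups of the induction table, with points for the 3 libraries of a group and bars for mean ± SD. Axes start at 0 except for Cdkn1a, Pmaip1 and Bbc3, which have log axes. Pmaip1 averages 1110 and 1214 FPKM in gPSC4-EpiLC and ESC-EpiLC and under 25 FPKM in the 3 germ cell groups.

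Trp53 stood at 787, 739 and 739 FPKM in gPSC4 and at 759, 757 and 765 FPKM in ESC. It was at 526, 479 and 502 FPKM in gPSC4-EpiLC and at 552, 524 and 548 FPKM in ESC-EpiLC, below every stem cell library. PGCLC had 623, 593 and 588 FPKM from gPSC4 and 593, 517 and 543 FPKM from ESC, and PGC 493, 527 and 508 FPKM. The stem cells stood above the other groups without overlap. In the order gPSC4-PGCLC, ESC-PGCLC, ESC-EpiLC, PGC and gPSC4-EpiLC each group overlapped the next, while gPSC4-PGCLC did not overlap gPSC4-EpiLC. The EpiLC step was −0.59 log2 from gPSC4 and −0.49 log2 from ESC (limma adjusted p 3.4e-08 and 4.2e-07), short of a call. The PGCLC step was 0.26 log2 from gPSC4 (limma adjusted p 0.00043), short of a call, and 0.02 log2 from ESC (limma adjusted p 0.74).

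Cdkn1a fell at both steps from gPSC4. It was at 312, 333 and 315 FPKM in gPSC4-EpiLC and at 399, 346 and 357 FPKM in ESC-EpiLC, against 1149, 1198 and 1341 FPKM in gPSC4 and 1214, 1212 and 1223 FPKM in ESC. The EpiLC step was −1.94 ± 0.13 log2 from gPSC4 and −1.73 ± 0.13 log2 from ESC (limma adjusted p 2.8e-10 and 1.5e-09). PGCLC had 110, 163 and 188 FPKM from gPSC4 and 173, 205 and 199 FPKM from ESC, and PGC 166, 178 and 152 FPKM. The PGCLC step passed the test for gPSC4 (−1.09 ± 0.13 log2, limma adjusted p 5.8e-07), where without gPSC4-PGCLC replicate 1 it was −0.87 log2 and short of a call. For ESC it was −0.93 ± 0.13 log2 (limma adjusted p 4.1e-06), short of a call, and −1.03 log2 and called after scaling to median ratios. Stem cells, ESC-EpiLC, gPSC4-EpiLC and the 3 germ cell groups followed in this order, with overlap among the germ cell groups and between the stem cell groups alone.

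The 6 fibroblast markers summed to 195 to 209 FPKM in gPSC4 and 257 to 263 FPKM in ESC, then to 11.7 to 13.7 FPKM in gPSC4-EpiLC and 13.8 to 16.4 FPKM in ESC-EpiLC, and 51.9 to 75.2 FPKM in PGCLC. The lowest sums were in EpiLC and the lowest Cdkn1a levels in germ cells. In the table of starting cells the MEF library had 87.3 FPKM of Cdkn1a and 7754 FPKM of these markers, and the ES libraries 181 and 178 FPKM of Cdkn1a and 968 to 1040 FPKM of the markers. The second MEF library, in its own table, had 140 FPKM of Cdkn1a and 8160 FPKM of the markers. The part of these markers in the fall of Cdkn1a was not tested.

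Pmaip1 moved most of all members. It had 1095, 994 and 1239 FPKM in gPSC4-EpiLC and 983, 1140 and 1520 FPKM in ESC-EpiLC, against 244, 218 and 285 FPKM in gPSC4 and 218, 227 and 279 FPKM in ESC. All 6 EpiLC libraries lay above all 6 stem cell libraries, and Pmaip1 rose by 2.15 ± 0.22 log2 from gPSC4 and by 2.31 ± 0.22 log2 from ESC (limma adjusted p 1.4e-07 and 5.1e-08). PGCLC had 26.8, 22.7 and 17.5 FPKM from gPSC4 and 30.0, 17.4 and 23.9 FPKM from ESC. The differences were −5.59 ± 0.22 log2 for gPSC4 and −5.63 ± 0.22 log2 for ESC (limma adjusted p 6.4e-14 and 5.2e-14), and the EpiLC means were 49.7 and 51.1 times those of PGCLC. PGC had 15.9, 11.6 and 23.3 FPKM, within or below the PGCLC range. The 2 steps share the EpiLC libraries, so they are not independent of each other. By size of the log2 difference Pmaip1 was number 28 of 14059 genes at the PGCLC step from gPSC4 and number 29 from ESC. A fall of Pmaip1 was known when the genes were chosen, so the rank and the p-values of this step are a description.

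Bbc3, the other BH3 gene, varied more between replicates. It had 72.7, 90.7 and 123 FPKM in gPSC4-EpiLC against 31.5, 68.2 and 74.2 FPKM in gPSC4, which overlapped (0.77 ± 0.48 log2, limma adjusted p 0.21). From ESC it rose by 1.74 ± 0.48 log2, with 56.2, 106 and 86.3 FPKM in ESC-EpiLC and 17.1, 19.5 and 37.4 FPKM in ESC (limma adjusted p 0.0057). Whether the EpiLC step differs by origin was tested, and the difference of −0.97 ± 0.68 log2 had a limma adjusted p of 1. It fell at the PGCLC step to 4.22, 19.0 and 20.8 FPKM from gPSC4 and to 23.8, 34.3 and 28.0 FPKM from ESC (−2.84 and −1.47 log2, limma adjusted p 4.6e-05 and 0.013). The ESC fall had a limma adjusted p of 0.059 without ESC-EpiLC replicate 2. PGC had 25.2, 7.78 and 10.4 FPKM.

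Bax and Perp completed the apoptosis genes. Bax was at 607 to 714 FPKM in the stem cell and EpiLC groups and at 388 to 489 FPKM in PGCLC and PGC, with no overlap between these stages. Its PGCLC step was −0.56 log2 from gPSC4 and −0.65 log2 from ESC (limma adjusted p 9.7e-07 and 1.2e-07), short of a call. Perp ranged over 28.3 to 71.4 FPKM in all 21 libraries and passed the adjusted p in neither step.

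Ccng1 fell at the germ cell stage and was not called at the EpiLC step. It was at 408, 363 and 346 FPKM in gPSC4-EpiLC and 450, 431 and 406 FPKM in ESC-EpiLC, against 387, 379 and 341 FPKM in gPSC4 and 401, 383 and 376 FPKM in ESC (0.01 and 0.15 log2, limma adjusted p 0.94 and 0.22). PGCLC had 103, 85.6 and 103 FPKM from gPSC4 and 117, 122 and 104 FPKM from ESC, differences of −1.93 ± 0.10 and −1.90 ± 0.10 log2 (limma adjusted p 2.1e-12 and 2.4e-12). PGC had 99.0, 94.6 and 121 FPKM, which overlapped PGCLC. Mdm2, whose gene like Ccng1 feeds back on p53, was at 136 to 186 FPKM in stem cells and EpiLC and at 110 to 144 FPKM in PGCLC and PGC. Its PGCLC step was −0.31 log2 from gPSC4 and −0.44 log2 from ESC (limma adjusted p 0.011 and 0.00067), short of a call.

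Sesn2 was highest in stem cells and lowest in germ cells. It was at 151, 134 and 146 FPKM in gPSC4 and 160, 171 and 176 FPKM in ESC, at 91.4, 101 and 103 FPKM in gPSC4-EpiLC and 105, 107 and 127 FPKM in ESC-EpiLC, and at 43.6, 50.8 and 37.8 FPKM in gPSC4-PGCLC and 41.0, 56.9 and 57.1 FPKM in ESC-PGCLC. No library of a later stage overlapped an earlier one. The EpiLC step was −0.54 and −0.58 log2 (limma adjusted p 0.013 and 0.0082), short of a call, and the PGCLC step passed the test at −1.15 and −1.12 log2 (limma adjusted p 8.7e-06 and 1.1e-05). Without ESC-PGCLC replicate 1 the ESC value was −0.97 log2 and short of a call. PGC had 28.19, 42.6 and 52.8 FPKM. Trp53inp1 was at 156 to 231 FPKM in stem cells and EpiLC, 172 to 210 FPKM in gPSC4-PGCLC, 135 to 160 FPKM in ESC-PGCLC and 138 to 151 FPKM in PGC.

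At the EpiLC step 2 of 10 members passed from gPSC4, 1 higher and 1 lower, where 20.4% of all genes passed, 10.1% as higher and 10.3% as lower. From ESC 3 passed, 2 higher and 1 lower, where 20.96% passed, 9.64% as higher and 11.3% as lower. At the PGCLC step 5 members passed from gPSC4 and 4 from ESC, all lower, where 29.7% and 29.3% of genes passed and 13.9% and 12.7% passed as lower. Pmaip1, whose fall was known when the genes were chosen, is among the calls from both origins. These counts and the members' median are therefore a description. The members' median at the PGCLC step was −0.82 log2 from gPSC4 and −0.79 from ESC, beside 0.08 and 0.10 over all 14059 genes. PGCLC and PGC differ from the earlier stages in several marker lists as well. The 6 blood markers summed to 349 to 805 FPKM in PGCLC and 517 to 544 FPKM in PGC. In EpiLC and stem cells they summed to 24.1 FPKM or less. The 6 endoderm markers summed to 42.0 to 65.7 FPKM in PGCLC and PGC, against 15.3 FPKM or less before. For the 6 granulosa markers the sums were 10.9 to 25.3 FPKM, against 1.87 FPKM or less. Those of the 6 proliferation genes were 2328 to 2823 FPKM, against 2040 to 2175 FPKM. The part of these lists in the falls was not tested.

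**Figure D4:**
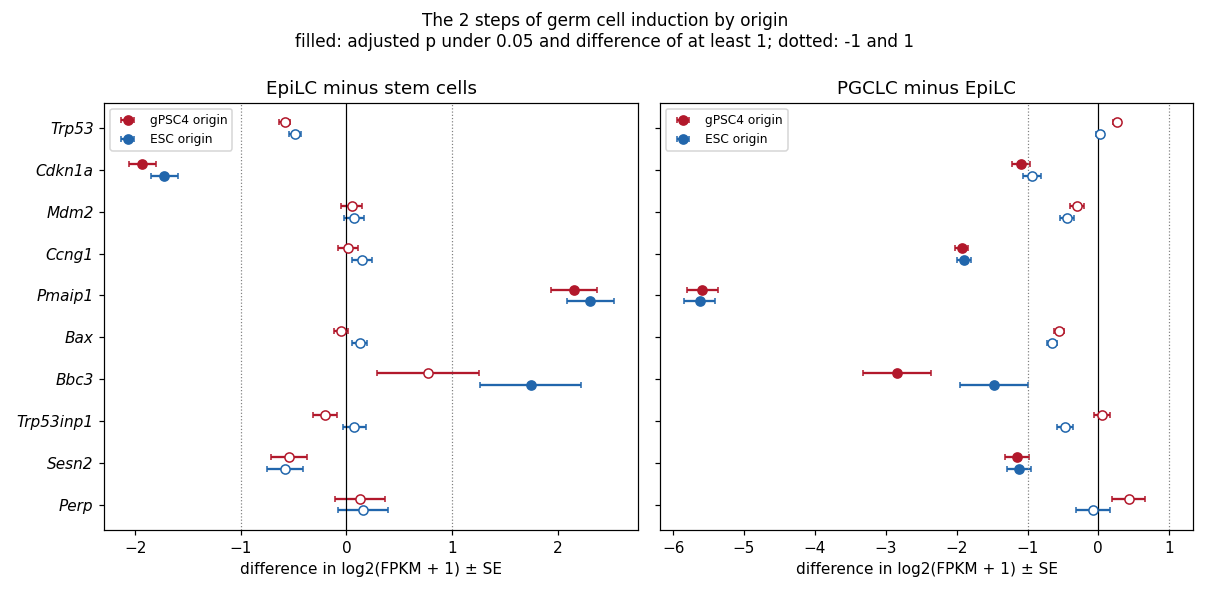
Differences in log2(FPKM + 1) ± SE for the 10 genes at the EpiLC step (left) and the PGCLC step (right), from gPSC4 (red) and from ESC (blue), where filled points passed an adjusted p of 0.05 and a difference of 1. Pmaip1 is at 2.15 and 2.31 on the left and at −5.59 and −5.63 on the right.

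Origin made no called difference in any member. Between gPSC4 and ESC, between their EpiLC and between their PGCLC, 0 of 10 members passed (limma, and voom on recovered reads), where 0.00711%, 0.0711% and 0.313% of all genes passed, and 1, 1 and 6 members had an unadjusted p under 0.05, beside 4.21%, 8.55% and 14.03% of all genes. The 6 at the PGCLC stage were Trp53inp1, Perp and Trp53 on the higher side for gPSC4-PGCLC (0.39, 0.57 and 0.13 log2) and Bbc3, Cdkn1a and Ccng1 on the lower side (−1.16, −0.35 and −0.24 log2), with limma adjusted p between 0.11 and 0.29. Tests of whether a step differs by origin called 0 members at the EpiLC step and 0 at the PGCLC step (limma, and voom), where 0.0142% and 0.0854% of genes passed, and 0 and 2 members had an unadjusted p under 0.05, beside 4.72% and 11.6% of all genes. For Pmaip1 the steps differed by −0.16 ± 0.31 and 0.04 ± 0.31 log2 between origins.

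PGCLC were also set against PGC. From gPSC4 and from ESC, 0 of 10 members passed (limma, and voom), where 0.576% and 0.427% of genes passed, and 2 members each had an unadjusted p under 0.05, beside 13.1% and 13.9% of all genes. Trp53 was above PGC in each gPSC4-PGCLC library, by 0.24 ± 0.05 log2 (limma adjusted p 0.034), short of a call. Pmaip1 lay 0.41 ± 0.22 and 0.49 ± 0.22 log2 above PGC from gPSC4 and from ESC (limma adjusted p 0.45 and 0.33), and Bbc3 −0.07 ± 0.48 and 1.09 ± 0.48 log2.

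At the EpiLC step 2 of 30 other targets were higher and 4 lower from gPSC4, where 10.1% and 10.3% of all genes were, and 1 higher and 5 lower from ESC, where 9.64% and 11.3% were. These counts lie near the background. Plk3 was higher by 2.96 and 2.79 log2, while Ephx1, a detoxifying hydrolase, was lower at −2.28 and −2.63 log2, Ak1, an adenylate kinase, at −1.52 and −1.46 log2 and Gdf15 at −1.30 and −2.12 log2, from gPSC4 and from ESC in this order. At the PGCLC step 1 was higher and 12 lower from gPSC4, where 15.8% of all genes were higher and 13.9% lower, and 3 higher and 11 lower from ESC, where 16.7% were higher and 12.7% lower. Psrc1, a spindle protein, averaged 12.1 FPKM in gPSC4-PGCLC and 263 FPKM in gPSC4-EpiLC, and 9.43 FPKM in ESC-PGCLC and 264 FPKM in ESC-EpiLC (−4.35 and −4.71 log2). From gPSC4, Gdf15, Plk3 and Zmat3, a p53-induced RNA-binding protein, followed at −2.39, −2.27 and −2.04 log2. From ESC, Ercc5, a nuclease of excision repair, Steap3, a metalloreductase, and Phlda3, an inhibitor of AKT, followed at −1.96, −1.72 and −1.61 log2. A gene of any list named for 1 origin is not thereby a difference between origins. The tests of either step by origin called 0 of 30 other targets, 0 of 19 regulators and 0 of 12 BCL2 family genes. Of all genes 0.0142% passed at the EpiLC step and 0.0854% at the PGCLC step.

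Of 19 tested regulators 1 was higher and 0 lower at the EpiLC step from gPSC4, and 2 higher and 0 lower from ESC, below the 20.4% and 20.96% of all genes called in either direction. Trp53bp1, a DNA break response factor, was higher by 1.14 and 1.27 log2, and Ppm1d, the phosphatase WIP1 that p53 induces, by 1.45 log2 from ESC. At the PGCLC step 2 were higher and 1 lower from gPSC4, and 3 higher and 0 lower from ESC, again below the 29.7% and 29.3% of all genes called. Mdm4, which binds p53 and blocks its activity, averaged 124 FPKM in gPSC4-PGCLC and 49.7 FPKM in gPSC4-EpiLC, and 111 FPKM in ESC-PGCLC and 42.0 FPKM in ESC-EpiLC (1.30 and 1.38 log2). The damage-sensing kinase gene Atr was higher by 1.25 and 1.01 log2, Ppp1r13b, a p53-binding protein of apoptosis, by 1.24 log2 from ESC, and Trp73 was lower from gPSC4 (−1.03 log2).

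Of 12 BCL2 family genes 5 were higher and 2 lower at the EpiLC step from gPSC4, and 4 higher and 0 lower from ESC, beside the same 20.4% and 20.96% of all genes. Bcl2l11, which encodes the BH3 protein BIM, averaged 62.4 FPKM in gPSC4-EpiLC and 7.12 FPKM in gPSC4, and 65.1 FPKM in ESC-EpiLC and 11.8 FPKM in ESC (3.0 and 2.36 log2). Bik, another BH3 gene, was higher by 2.14 and 1.91 log2, and from gPSC4 the BH3 gene Hrk and the survival gene Bcl2 by 1.52 and 1.25 log2. Bok, a relative of Bax, was higher by 1.24 and 1.28 log2, and the BH3 gene Bmf by 1.04 log2 from ESC. The 2 lower calls from gPSC4 were the survival gene Bcl2l1 (−1.25 log2) and the BH3 gene Bad (−1.19 log2), which like the gPSC4 value of Bok are given after their values were seen. At the PGCLC step 2 were higher and 4 lower from gPSC4, and 3 higher and 4 lower from ESC, beside 29.7% and 29.3% of all genes called. Bad was higher by 1.89 and 1.64 log2, Bmf by 1.72 log2 from gPSC4, and Bok was lower (−2.12 and −2.24 log2). Mcl1, the survival factor that NOXA binds, averaged 31.0 FPKM in ESC-PGCLC and 120 FPKM in ESC-EpiLC (−1.92 log2). Hrk was listed at 0 in the PGCLC of both origins, with means of 8.90 FPKM in gPSC4-EpiLC and 4.87 FPKM in ESC-EpiLC.

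The genes whose 7 group means ran most like those of 3 members were found among 10991 genes with a highest group mean of at least 5 FPKM, as a description with Pearson's r over 7 groups that share libraries and depth. For Pmaip1 they were Prdx1, Tomm40l, Khk, H2-M3 and Atpif1 (r 0.9981 to 0.9993). For Cdkn1a they were Clmp, Anxa1, Tpm3, Krt17 and Kri1 (r 0.9974 to 0.9989), and for Trp53 Setd5, Gm14393, Cpsf4, Arfgap1 and Tbk1 (r 0.9882 to 0.9919). Among the members themselves Ccng1 and Bax ran most alike (r 0.995 over 7 groups), and Sesn2 and Perp least (r −0.772).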

How the data were processed

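Values are FPKM that the authors deposited in 5 tables, per the file headers. Per the submitters' processing notes the build was mm10 and the tools included Bowtie2, HISAT2, RSEM, R 3.4.2 and DESeq2, with no role given, and per the labels' protocols total RNA went into NEBNext Ultra libraries. Columns were matched to samples by name, where the acid columns read 28D+CS and the sample titles 28D+CA. The 3 ESC columns and both MEF columns match a group and no numbered sample. FPKM values of the induction table resolved into whole reads for 17600 of 17600 genes above 0 (within 0.001 reads). Identifiers of the fibroblast table were named through GENCODE M21, where 30659 of 30849 matched, and coordinates and start sites come from RefSeq on GRCm38.p6.

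The members, the lists and the rules were chosen with earlier results of these data known. Within a table, log2(FPKM + 1) of genes with at least 1 FPKM in 2 (reprogramming), 1 (lines) or 3 (induction) libraries was fitted with limma 3.58.1 in R 4.3.3, with group as the single term over all libraries of the table and a mean-variance trend. That left 13266, 13797 and 14059 genes. Tests were two-sided with Benjamini-Hochberg adjustment over these genes, and calls needed an adjusted p under 0.05 and 1 log2. Differences on this scale understate those of low genes. There were 14 comparisons. List genes were named as the 4 called genes of a list with the largest difference in a comparison. The fit was tested on simulated data. Settings changed in turn were the pseudocount (0.1), the filter, the scaling (median ratios or quantiles), the trend, the minimum difference, the libraries fitted (the compared groups, or all but 1), a replicate block and a trend on transcript length, and, added after the data were seen, voom on recovered reads.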

Additional observations from a re-analysis of the deposited data

How the results depend on the processing

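Of 2150 repeats of 140 member results under alternative settings, 2123 kept their direction and their side of the threshold, 17 passed it and 10 lost it, and none reversed. Of the 17, 16 came from dropping the minimum of 1 log2. Without it the calls were 3 against 1 for day 28 over day 16, 9 against 7 for lines over GC (Ccng1 higher and Trp53inp1 lower), 4 against 2 and 5 against 3 for the EpiLC step from gPSC4 and ESC, 8 against 5 and 8 against 4 for the PGCLC step, and 1 against 0 for gPSC4-PGCLC over PGC. The single call at day 28 over day 16 became 0 with median-ratio scaling, quantile normalization and the length trend removed, with or without a replicate block, for which the cause was not tested, and it was 0 to 1 when a library was left out. Leaving out a library gave 4 to 5 calls at the PGCLC step from gPSC4, 3 to 4 from ESC, and 0 for crotonic acid. Over all genes, 272 were called for crotonic acid and 7 to 25 when 1 of the 4 libraries was left out.

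Same-numbered libraries of the induction table deviated together by a correlation of −0.028 to 0.17, over 0.1 in 9 of 45 pairs. Pairs with PGC lay between −0.028 and 0.023. All pairs among the cultured groups were positive, between 0.0063 and 0.17, and included every pair over 0.1. The number was not taken as a pairing in the main fit. In the reprogramming table this correlation was 0.14 to 0.34 over 3 pairs of groups, where with 2 libraries a group both numbers give the same value. The replicate block left 0 calls for crotonic acid, 1 for day 28 over day 16, 2 for the EpiLC step from gPSC4, 5 and 4 for the PGCLC step, and 0 between origins. No paired analysis was possible for comparisons with ESC because the numbers in the ESC column names could not be tied to 1 sample each, or of lines with GC because these columns share no replicate numbers.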
